A study of Mus musculus with 6 samples.

Results

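Of the 14236 circular RNA probes on a mouse circRNA array, 387 varied over a range of more than 2 log2 units between their highest and their lowest array in the mouse nucleus accumbens. The members were chosen by their measured signal. A probe belonged to this set when its spot was well above background and free of outlier marks on all 6 arrays and when its highest minus its lowest value, its range, was above 2 on the log2 scale. Such a spot on every array was found for 10983 probes, 389 of them passed the range, and 2 were left out as belonging to a set of 5 Homer1, Ntrk3 and Kitl probes that is not described here. The range itself chose the members, so the ranges and profiles given here are a description and carry no test.

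The study measured circRNAs in the nucleus accumbens of adult male C57BL6 mice after cocaine conditioned place preference (CPP), a test of how strongly a mouse comes to prefer the place in which it received the drug, and in saline controls. The mice of both groups were 2 months old, and their full strain name is C57Bl/6J. There were 3 cocaine CPP arrays, replicates 2, 3 and 4, and 3 control arrays, replicates 1, 5 and 6. RNA of both groups was digested with RNase R, which degrades linear RNA, and labelled with a single dye. The labels do not say how many mice each array holds, so the spread between arrays may be partly technical.

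CircRNAs are closed loops made when the spliceosome joins a downstream splice donor to an upstream acceptor, a reaction called back-splicing. They have no free ends, which makes them resistant to exonucleases and long-lived, and they are abundant in neurons, often near synapses. Many arise from exons of long genes, and the amount of a loop need not follow that of the linear mRNA of the same host gene.

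Only 11 of the 387 members had a host gene in the annotation used here. Each of the 11 was listed there as an exonic circRNA, as were 558 (86.8%) of the 643 other annotated probes among the 10983. This annotation was the study's list of circRNAs bound by HuD, an RNA-binding protein of neurons, together with the deposited tables, and it covered 654 of the 10983 probes, so that presence on the HuD list describes the source of the names. The other 376 members are known here by probe identifier alone. None of the 29 circRNAs in the deposited cocaine tables was a member. Of the 29, 21 were among the 10983 probes, of which 387 in all were members, so nothing is read from this count. The genome build of the coordinates is not given in the sources used here, and all 11 circRNAs lie inside their host gene in the mouse RefSeq annotation of GRCm38.p6.

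The back-splice junctions of 7 annotated members are shown because these members stand for the different patterns found over the arrays. Map1a, Trim37, Zfp426 and Brwd1 come first, since they share letters, which are in capitals. Foxp1 follows as the annotated member of largest range, and Kcnc2 and Col4a3bp as the annotated members of 2 further patterns. Each is the 60-letter junction sequence listed for the probe, printed 5′ to 3′.
Map1a, chr2:121298597-121299046, plus strand: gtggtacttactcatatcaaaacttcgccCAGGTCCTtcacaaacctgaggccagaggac
Trim37, chr11:87143127-87190159, plus strand: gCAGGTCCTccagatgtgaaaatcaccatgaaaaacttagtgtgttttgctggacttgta
Zfp426, chr9:20473028-20476478, minus strand: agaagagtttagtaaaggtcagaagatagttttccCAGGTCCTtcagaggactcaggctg
Brwd1, chr16:96043001-96068627, minus strand: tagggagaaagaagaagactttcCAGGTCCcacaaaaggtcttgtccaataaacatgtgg
Foxp1, chr6:99260345-99308438, minus strand: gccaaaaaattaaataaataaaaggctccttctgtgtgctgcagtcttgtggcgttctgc
Kcnc2, chr10:112455608-112458654, plus strand: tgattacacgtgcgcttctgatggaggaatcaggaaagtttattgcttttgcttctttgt
Col4a3bp, chr13:96612261-96635886, plus strand: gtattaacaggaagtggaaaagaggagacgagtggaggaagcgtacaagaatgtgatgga

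Map1a and Zfp426 shared a run of 13 letters, cccaggtccttca. CAGGTCCT was found as listed in 3 of the 654 annotated junctions, or 0.459%, and these were the Map1a, Trim37 and Zfp426 members, with ranges of 2.88 to 4.21. The shorter CAGGTCC was found in 8 of 654, or 1.22%. Of these, 4 were members, Brwd1 being the fourth, and 4 were not, namely probes of Edil3 and Cdk17 and a pair of Pgbd5 probes, with ranges of 0.35 to 0.82. On the reverse strand, CAGGTCCT occurred in the Wdr26 and Dync1h1 junctions, neither of which was a member. The letters were picked after the sequences and the ranges had been seen, and a match describes the letters only. GC content had a median of 45% in the annotated members and also in the other 643 annotated probes.

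Each of the 6 arrays held 15712 spots, and no circRNA spot was saturated. Between 77.8% and 93.2% of circRNA probes were well above background, with cocaine CPP 3 lowest. The 75th percentile of the circRNA signal, which was subtracted from each array, lay between 6.77 on cocaine CPP 3 and 8.31 on control 5 on the log2 scale. The 3 controls and cocaine CPP 2 lay in slide row 1, and cocaine CPP 3 and 4 in row 2. Host genes of striatal projection neurons were represented by 11 probes from 6 genes (Arpp21, Bcl11b, Dlgap3, Foxp1, Pde7b and Rgs7bp), and all 11 were well above background on every array. The same held for the oligodendrocyte probe (Tppp) and both astrocyte probes (Slc1a2 and Slc6a11), while no microglial or endothelial marker had an annotated probe. In such bulk tissue, fewer cells of a type and less RNA per cell cannot be told apart.

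The members had a median range of 2.48 log2 units, against 0.77 over all 10983 probes. In 94 members the range was above 3, in 41 it was above 4, and in 24 it was above 5. The highest value was on a cocaine CPP array in 355 of the 387, with 146 on cocaine CPP 4, 115 on cocaine CPP 3 and 94 on cocaine CPP 2. Over all 10983 probes the highest value was on a cocaine CPP array in 7017. The lowest value was on a cocaine array in 285 members, and over all 10983 probes in 7261. Among the members cocaine CPP 2 held 154 of the lowest values and cocaine CPP 4 held 107, followed by control 1 with 73.

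In most members the cocaine arrays differed among themselves more than the controls did. Among the members, the median range within the cocaine CPP arrays was 2.34, and within the controls it was 1.06. The range was wider within cocaine CPP in 350 members, or 90.4%, while over all 10983 probes it was wider there in 71.1%, with medians of 0.63 and 0.44. Within the cocaine arrays alone 328 members already had a range above 2, and within the controls alone 63 did.

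Most members fell into 3 profiles, meaning groups whose values rose and fell together from array to array. Average-linkage clustering on the correlation between members, cut at 1 minus r of 0.3, put 123, 104 and 91 members into the 3 largest groups and left 69 outside them. The groups are called here by the annotated member of largest range in each, Foxp1, Col4a3bp and Kcnc2. The median correlation between pairs of members over the 6 arrays was 0.90, 0.92 and 0.96 within these profiles. The profiles were found on the same values that chose the members, and they were not tested.

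**Figure D1:**
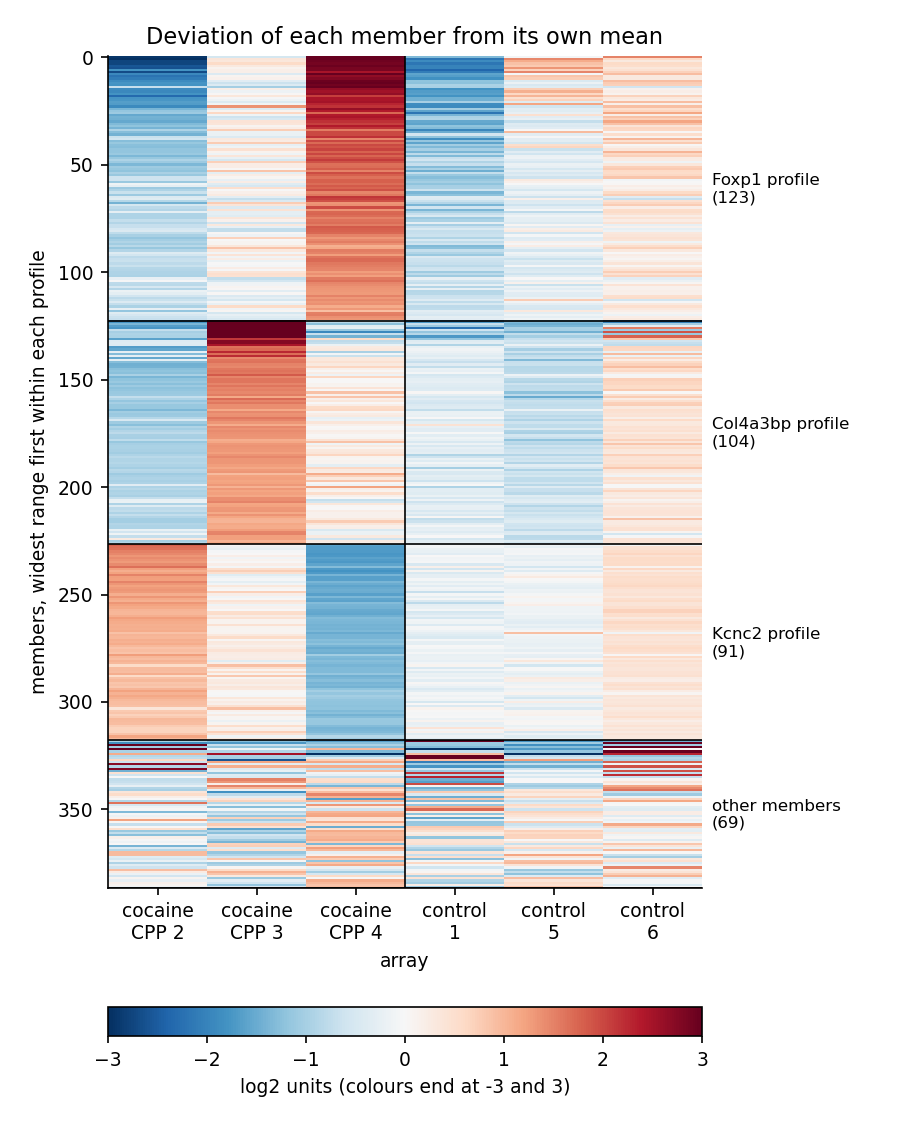
Each row is 1 of the 387 members and each column 1 array; colour gives the deviation from the member's own mean in log2 units, red above and blue below. The 123 members of the Foxp1 profile are red on cocaine CPP 4, the 104 of the Col4a3bp profile on cocaine CPP 3, and the 91 of the Kcnc2 profile are red on cocaine CPP 2 and blue on cocaine CPP 4.

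In the Foxp1 profile all 123 members were highest on cocaine CPP 4. The mean deviation from each member's own mean was 1.88 on cocaine CPP 4, -1.11 on cocaine CPP 2 and -1.05 on control 1. It was 0.37 on control 6 and -0.09 on control 5. The 2 groups of mice thus overlapped, with a low array and a higher array in each. Ranges reached 6.30, with a median of 2.84, and 33 of the 123 members had a range above 2 within the controls alone. This profile held 8 of the 11 annotated members. Without cocaine CPP 4 the range fell to 2.83 for Foxp1, 3.35 for Pdia5, 2.44 for Map1a, 1.78 for Trim37, 1.25 for Zfp426 and 0.99 for Brwd1.

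Foxp1 encodes a forkhead transcription factor found in striatal projection neurons. The signal of the Foxp1 member (ASCRP4009892, mmu_circRNA_40615) was 0.09, 2.30 and 4.94 on cocaine CPP 2, 3 and 4 and 0.35, 2.92 and 2.46 on controls 1, 5 and 6, in log2 units above the 75th percentile of the array. The highest and lowest arrays were 29.0-fold apart and were both cocaine arrays. Cocaine CPP minus control was 0.53 ± 1.15 (SE, 3 arrays in each group), far less than the spread within either group (limma, unadjusted p = 0.657).

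A pair of other Foxp1 probes passed the same filters and varied much less. ASCRP4013609 had a range of 1.1 and ASCRP4005342 one of 0.75, and their correlations with the Map1a member over the 6 arrays were 0.51 and 0.62. Other junctions of the gene did not show the large differences of the first probe.

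Brwd1 encodes a bromodomain and WD repeat protein that binds chromatin. Its member (ASCRP4011876) read -2.15, -1.25 and 0.04 on cocaine CPP 2, 3 and 4 and -1.51, -1.62 and -1.15 on controls 1, 5 and 6. The controls lay close together here and within the range of the cocaine arrays. The range of 2.19 was 1.77 without background subtraction. The group difference was 0.31 ± 0.50 (SE, limma unadjusted p = 0.547).

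Map1a encodes a microtubule-associated protein of dendrites, and its circRNA of 450 bases of genome was the shortest of the annotated members. On cocaine CPP 2, 3 and 4 the Map1a member (ASCRP4011284, mmu_circRNA_34414) read 2.70, 4.29 and 6.91, and on controls 1, 5 and 6 it read 3.02, 5.14 and 4.67. The order of the 6 arrays was that of Foxp1, and the correlation between these members over the 6 arrays was 0.996. The range was 4.21 and the group difference 0.36 ± 1.0 (SE, limma unadjusted p = 0.730).

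Foxp1, Brwd1 and Map1a are also hosts of circRNAs that the study's text names as both bound and regulated by HuD. The match is by host symbol alone, and which of the Foxp1 junctions the text means was not settled here. The remaining hosts named with them had no member. The Magi1 probe had a range of 0.54 and the Lppr4 probe one of 1.25.

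Trim37 encodes an E3 ubiquitin ligase. Its member (ASCRP4009828) read 2.36, 3.37 and 5.59 on cocaine CPP 2, 3 and 4 and 2.57, 4.14 and 3.66 on controls 1, 5 and 6. It followed the Map1a member closely, with a correlation of 0.996 over the 6 arrays. The other Trim37 probes, ASCRP4007593 and ASCRP4005649, had ranges of 0.99 and 0.32, and correlations with Map1a of -0.21 and 0.07.

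Pdia5 encodes a protein disulfide isomerase of the endoplasmic reticulum. The Pdia5 member (ASCRP4007241) read 3.52, 6.18 and 7.93 on cocaine CPP 2, 3 and 4 and 4.05, 6.87 and 6.54 on controls 1, 5 and 6. Both groups held 1 low array, and the means differed by 0.06 ± 1.12 (SE, limma unadjusted p = 0.960). Its range was 4.41, or 21.2-fold.

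Rexo2 encodes an exonuclease that degrades short RNA fragments in mitochondria. The Rexo2 member (ASCRP4010195) differed from the others, because it stood high on a single array: it read -2.01, -2.35 and 2.28 on cocaine CPP 2, 3 and 4 and -2.29, -1.69 and -1.90 on controls 1, 5 and 6. The 5 other arrays lay within 0.66 of each other. The group difference of 1.27 ± 1.07 (SE, limma unadjusted p = 0.271) rested on cocaine CPP 4, without which it was -0.22.

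Zfp426 encodes a zinc finger protein. The Zfp426 member (ASCRP4001750) read 5.07, 4.81 and 6.86 on cocaine CPP 2, 3 and 4 and 3.98, 5.17 and 5.23 on controls 1, 5 and 6. It was lowest on control 1, while Foxp1 and Map1a were lowest on cocaine CPP 2. The group difference was 0.79 ± 0.57 (SE, limma unadjusted p = 0.204).

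Lsamp encodes the limbic system-associated membrane protein, a neuronal adhesion molecule, and its circRNA spanned 255786 bases, the longest of the annotated members. The Lsamp member (ASCRP4010986) read 1.64, 2.30 and 3.91 on cocaine CPP 2, 3 and 4 and 1.71, 2.56 and 2.48 on controls 1, 5 and 6. Cocaine CPP 4 stood above the other 5 arrays, which lay within 0.92 of each other.

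**Figure D2:**
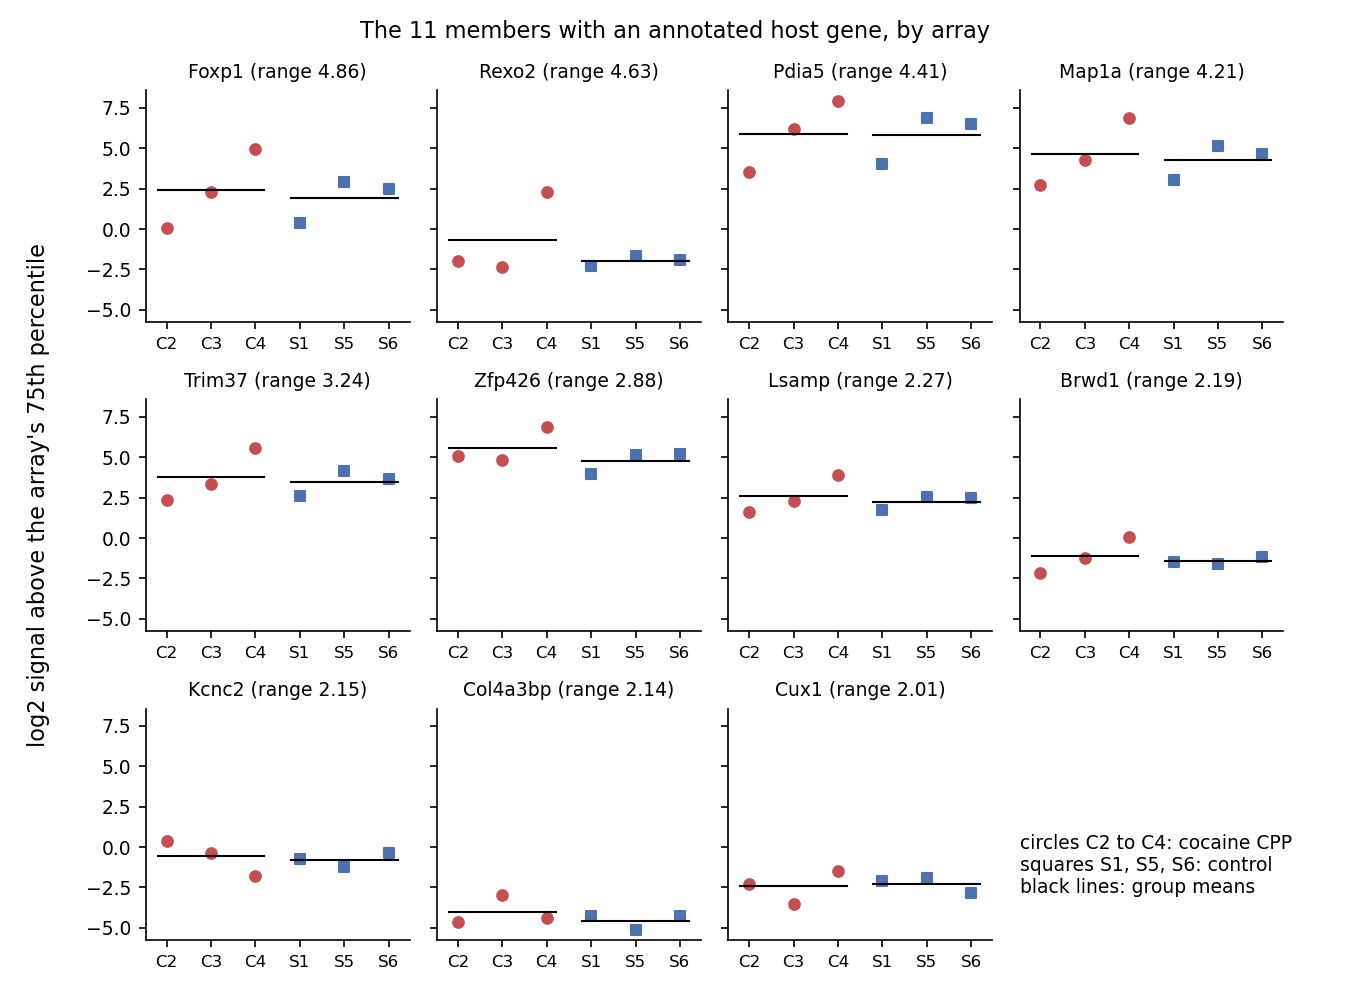
Each panel shows the log2 signal above the array's 75th percentile of 1 annotated member on cocaine CPP 2 to 4 (circles, C) and controls 1, 5 and 6 (squares, S), with black lines at the group means. In the first 8 panels and for Cux1 cocaine CPP 4 is the highest array, and in all 11 panels the cocaine arrays lie on both sides of at least 1 control.

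The Col4a3bp profile was led by cocaine CPP 3, which held the highest value in 102 of its 104 members. The mean deviation was 1.67 on cocaine CPP 3, 0.34 on control 6 and 0.08 on cocaine CPP 4. It was negative on the remaining arrays, at -0.42 on control 1, -0.72 on control 5 and -0.95 on cocaine CPP 2. This order nearly reversed that of the arrays' 75th percentiles, with a correlation of -0.97 over the 6 arrays, which is a description. The part of the array signal in this profile was not tested.

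Spots of the Col4a3bp profile were mostly weak, with a median mean level 2.0 log2 units below the array's 75th percentile, and 16 of 104 above it. Without background subtraction 30 of the 104 still had a range above 2, and after normexp correction 19 did. The array's own negative probes that were well above background on all their spots (MM9NEGATIVE015, MM9NEGATIVE016 and MM9NEGATIVE017) were also highest on cocaine CPP 3, with ranges of 2.03, 1.83 and 1.89.

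Col4a3bp, named Cert1 in the RefSeq annotation, encodes a protein that carries ceramide between membranes. Its member (ASCRP4010957, mmu_circRNA_26785) read -4.64, -2.98 and -4.41 on cocaine CPP 2, 3 and 4 and -4.29, -5.12 and -4.29 on controls 1, 5 and 6. Only cocaine CPP 3 stood above all controls. The range of 2.14 fell to 1.49 without background subtraction and to 0.83 without cocaine CPP 3. Another Col4a3bp probe, ASCRP4000136, had a range of 0.64.

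The Kcnc2 profile ran against the Foxp1 profile on cocaine CPP 2 and 4, while on each control the mean deviations of both had the same sign. All 91 members were lowest on cocaine CPP 4, and 86 were highest on cocaine CPP 2. Mean deviations were 1.08 on cocaine CPP 2, 0.20 on cocaine CPP 3 and -1.39 on cocaine CPP 4, against -0.19, -0.11 and 0.42 on controls 1, 5 and 6. The correlation between the mean profiles of the Kcnc2 and Foxp1 groups was -0.77 over the 6 arrays.

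In the Kcnc2 profile the controls differed less than the cocaine arrays, though more than in all 10983 probes, where their median range was 0.44. The median range within the controls was 0.71, while within the cocaine arrays it was 2.37, and no member had a range above 2 within the controls. These were strong spots, with a median mean level 3.97 above the 75th percentile and 80 of 91 above it. Without background subtraction 83 of the 91 kept a range above 2, but with quantile normalization 49 did, whereas in the Foxp1 profile 121 of 123 did.

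Kcnc2 encodes a voltage-gated potassium channel of fast-spiking neurons. Its member (ASCRP4012911, mmu_circRNA_22632) read 0.38, -0.35 and -1.77 on cocaine CPP 2, 3 and 4 and -0.73, -1.24 and -0.39 on controls 1, 5 and 6. The cocaine arrays held both ends of the range. This was not one of the strong spots of its profile, with means of -0.58 in cocaine CPP and -0.79 in controls. Its range of 2.15 fell to 1.76 without background subtraction and to 1.53 with normexp. The group difference of 0.21 ± 0.51 (SE) was smaller than the spread within the cocaine arrays (limma unadjusted p = 0.696).

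**Figure D3:**
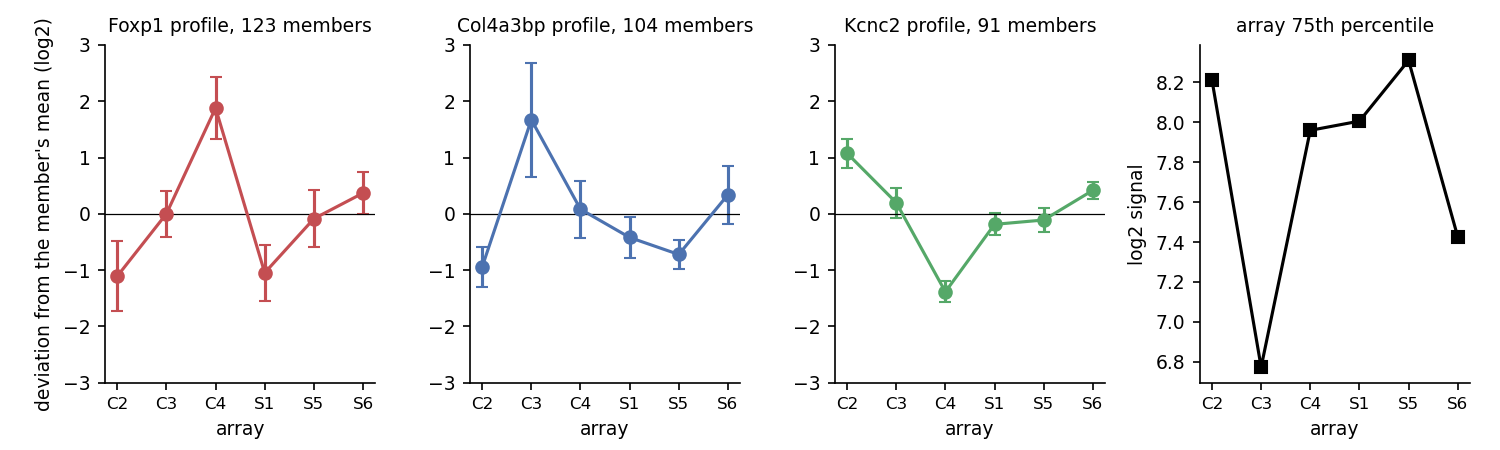
The first 3 panels show the mean deviation in log2 units on each array (C, cocaine CPP; S, control) over the members of each profile, with bars of 1 SD over members; the last panel shows the log2 75th percentile of each array. The Col4a3bp profile peaks at 1.67 on cocaine CPP 3, the array with the lowest 75th percentile (6.77).

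The 69 members outside the profiles included Cux1, which encodes a homeobox transcription factor. The Cux1 member (ASCRP4002022) read -2.26, -3.51 and -1.50 on cocaine CPP 2, 3 and 4 and -2.13, -1.90 and -2.82 on controls 1, 5 and 6. It lay just inside the threshold with a range of 2.01, and without background subtraction the range was 0.62. Its neighbours at the threshold were ASCRP4001622 and ASCRP4006849, at 2.004 and 2.01. Just outside were ASCRP4006013, ASCRP4011381 and ASCRP4008304, at 1.999, 1.998 and 1.995.

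**Figure D4:**
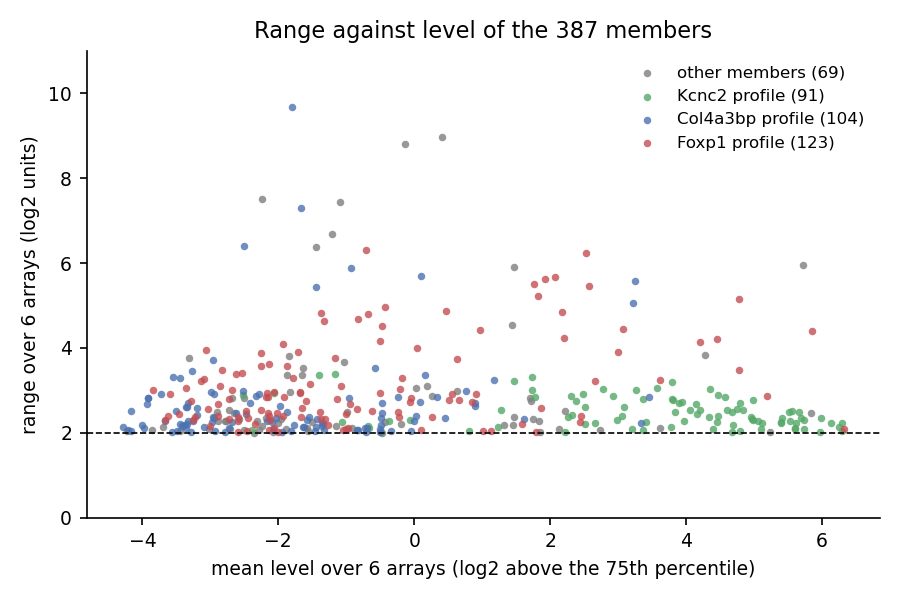
Each point is 1 of the 387 members, placed by its mean level over 6 arrays (x, log2 above the 75th percentile) and its range (y, log2 units), with the threshold of 2 dashed. Most members of the Kcnc2 profile lie to the right, with ranges up to 3.40, and the range of 9.68 belongs to a weak spot of the Col4a3bp profile.

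The 5 largest ranges among members without a host gene each came from 1 array. ASCRP4007826 read 5.89 on cocaine CPP 3, while on the 5 other arrays it lay between -3.79 and -2.65, so that the range was 9.68. It was 8.04 without background subtraction and 7.33 with normexp. ASCRP4004197 read 7.58 on control 1 and between -1.40 and -0.54 elsewhere. ASCRP4003946 read 6.84 on control 6 and between -1.96 and -1.20 elsewhere. The array on which the signal stood high thus differed from probe to probe and was a control in some of them. ASCRP4005999 read 3.43 on cocaine CPP 2 and between -4.07 and -2.92 elsewhere. ASCRP4009360 read 5.05 on control 6, and its 5 other values spanned 0.26.

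In 18 members the gap between the highest array and the next took up more than 0.8 of the range. These single-array members were highest on cocaine CPP 3 in 7 cases, on cocaine CPP 4, control 1 and control 6 in 3 cases each, and on cocaine CPP 2 in 2. No member had an equally isolated lowest array. ASCRP4012212, chosen after its values were seen, instead split the arrays into 2 levels across the groups, with 6.83, 8.22, 6.66 and 8.01 on cocaine CPP 2, cocaine CPP 3, control 1 and control 6, and 2.35 and 2.26 on cocaine CPP 4 and control 5.

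The widest unannotated members of the Foxp1 profile moved on several arrays. ASCRP4000501 read -3.64, -1.25 and 2.66 on cocaine CPP 2, 3 and 4 and -2.03, -0.77 and 0.76 on controls 1, 5 and 6, and without its highest array it still spanned 4.40. ASCRP4011497 read -0.71, 2.9 and 5.52 on the cocaine arrays and 0.36, 3.96 and 3.12 on the controls. In the Kcnc2 profile the widest was ASCRP4009241, at 0.63, -1.16 and -2.77 on the cocaine arrays and -1.21, -1.30 and -1.20 on the controls. The controls spanned 0.099 there.

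Each member has 1 spot per array, so its error between spots of 1 array is not known. Of the other probes printed as 10 spots on each array, 65 were well above background on all spots, and the median SD between the spots of a probe was 0.051 log2 units. Their ranges over the 6 arrays had a median of 0.88, and 2 of the 65 passed 2. The ones that passed were a linear mRNA probe and a negative probe. Of the array maker's 14 circRNA control probes none passed 2, and their median range was 0.87. The widest of them (AS_circRNA_control3000007) had a range of 1.70 and read 0.58, 0.61 and 2.29 on cocaine CPP 2, 3 and 4 and 1.15, 2.09 and 1.01 on controls 1, 5 and 6, with cocaine CPP 4 highest.

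The spots around a member did not share its deviation. On the array where a member was highest, its value lay above its own median over the arrays by 1.46, as a median over members. For the surrounding spots, a median of 22 spots within 2 rows and columns, the median deviation from their own medians was 0.0017. The largest such deviation of a neighbourhood was 0.42.

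**Figure D5:**
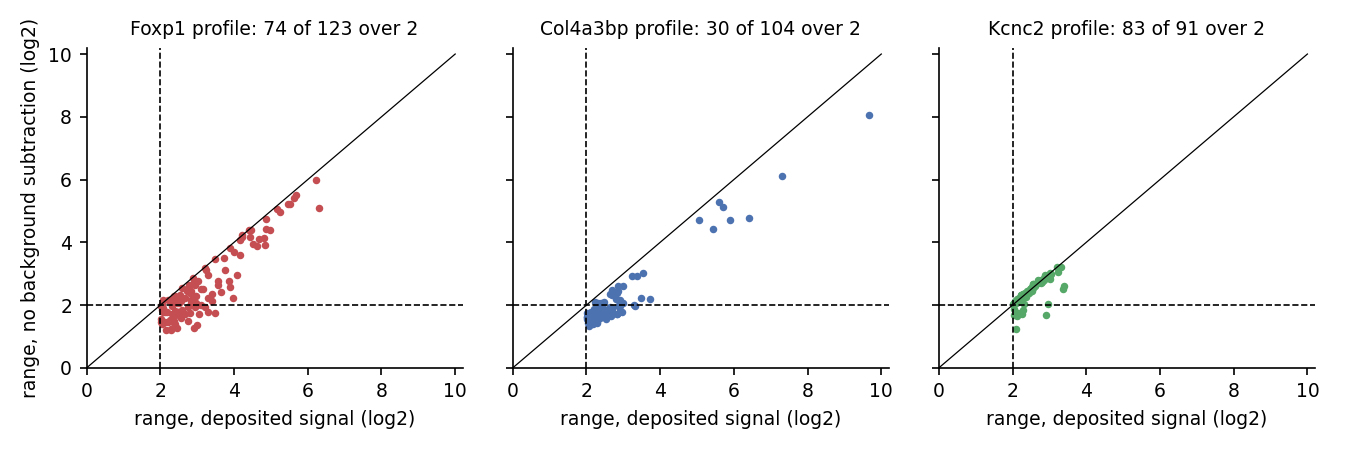
For each member of the 3 profiles the range from the deposited background-subtracted signal (x) is set against the range without background subtraction (y), both in log2 units, with the threshold of 2 dashed and the line of equality solid. Above 2 on the y axis lie 74 of 123 members of the Foxp1 profile, 30 of 104 of the Col4a3bp profile and 83 of 91 of the Kcnc2 profile.

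In the comparison of cocaine CPP with control no probe passed the adjusted threshold used here. At a limma adjusted p under 0.05 (Benjamini-Hochberg) 0 of the 387 members were called, with a lowest adjusted p of 0.9996, and 0 of the 12956 probes tested, or 0%. At an unadjusted p under 0.05, 2 members were called, beside 101 of all probes tested, or 0.78%. The groups did not overlap in 3 members, beside 469 of all probes tested, or 3.62%. The rule used the range over the same arrays, so nothing is read from these counts. The mean was higher in cocaine CPP in 284 members and lower in 103, with a median difference of 0.33. Over all 10983 probes the mean was higher in cocaine CPP in 5177 and lower in 5806, with a median difference of -0.015, and in the Kcnc2 profile 27 members were higher and 64 lower. The median SD within groups was 0.97 in the members against 0.30 over all 10983 probes.

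The members behind these small counts had no host gene here, and they were named after their values had been seen. ASCRP4009151 read 2.56, -1.34 and -0.20 on cocaine CPP 2, 3 and 4 and -4.14, -2.91 and -1.19 on controls 1, 5 and 6, a difference of 3.08 ± 1.03 (SE, limma unadjusted p = 0.0174), with overlap between control 6 and cocaine CPP 3. ASCRP4010029 read -2.91, -2.68 and -3.88 on the cocaine arrays and -2.77, -1.80 and -2.19 on the controls and differed by -0.90 ± 0.38 (SE, limma unadjusted p = 0.0434), also with overlap. The non-overlapping members were ASCRP4003946 and ASCRP4005999, whose ranges came from 1 array as given above, and ASCRP4004304, which read -3.69, -2.07 and -3.76 on the cocaine arrays and -3.78, -3.94 and -4.11 on the controls.

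Slide row and group were partly confounded, since row 2 held cocaine arrays only. Within row 1, which held the controls and cocaine CPP 2, cocaine minus control was -1.82 for Foxp1, -1.58 for Map1a, -2.30 for Pdia5 and -1.10 for Trim37. The mean of the row 2 arrays, cocaine CPP 3 and 4, lay above the controls by 1.71, 1.32, 1.24 and 1.03 for the same members. Cocaine CPP 2 was below and the row 2 mean above the control mean in 229 of the 387 members, among them 115 of the 123 of the Foxp1 profile, 94 of the 104 of the Col4a3bp profile, 20 of the 69 others and none of the Kcnc2 profile. The row 2 mean joins unlike arrays. In the Foxp1 profile the mean deviation was 8.7e-05 on cocaine CPP 3 and 1.88 on cocaine CPP 4. In the Col4a3bp profile it was 1.67 on cocaine CPP 3 and 0.08 on cocaine CPP 4. The counts use the values that chose the members and carry no test. Row 2 held no control, so a difference between rows cannot be told apart there from one between cocaine mice. With slide row as a covariate the comparison rests on cocaine CPP 2 alone, the same array whose value made ASCRP4005999 a member, so that the difference of 7.01 for this probe is a description and no test.

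By the role of their hosts, the annotated members were 3 of 57 annotated probes for transcription and chromatin (Foxp1, Brwd1, Cux1), 1 of 42 for cytoskeleton and motors (Map1a) and 1 of 40 for synaptic scaffold and adhesion (Lsamp). There was 1 of 27 for receptors, channels and transporters (Kcnc2) and 1 of 27 for protein turnover (Trim37). No member was found among 29 probes of calcium signalling hosts, 59 of kinases and phosphatases, 32 of G proteins and small GTPase regulators, 33 of vesicle release or 47 of RNA binding. The remaining 4 members were among the 261 probes whose hosts were in none of the lists. Over all roles, 11 of the 654 annotated probes were members, so few or none would fall in any list. Differences between roles were not tested.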

How the data were processed

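Total RNA of the nucleus accumbens was extracted with Trizol, digested with RNase R, amplified with random primers and hybridized to Arraystar mouse circRNA arrays. The authors deposited 1 table of spot intensity per array from Agilent Feature Extraction 11.0.1.1 (1 colour), in which the processed signal is background-subtracted but not normalized between arrays. The submitters' processing notes name limma. The coordinates and names came from the deposited tables of circRNAs kept by the authors and from the list of HuD-bound circRNAs; the fold changes and p-values in those tables, and 24 columns of per-sample values, were not used.

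From the processed intensities, log2 values minus the 75th percentile over the circRNA probes of each array were computed. Cocaine CPP and control were compared with limma 3.58.1 (lmFit and eBayes, two-sided, R 4.3.3) on the 12956 probes well above background on at least 3 arrays, with Benjamini-Hochberg adjustment over all of them. On simulated data of 12956 probes, 200 of them changed in cocaine CPP against control, 136 changes of 2 log2 units were recovered with 3 false calls, none of 1 unit, and 194 of 4 units with 5 false calls. The simulated noise was independent between probes, and the 200 were drawn from all probes, not from the members. The median SD within groups was 0.97 in the members against 0.30 over the 10983 probes. The recovery therefore does not describe the members. The number of arrays limits the precision.

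The members, the gene lists and the tests were chosen with earlier results of these data known. The members named were the annotated ones, the 5 members of largest range without a host, those nearest the threshold, up to 5 in each direction under p of 0.05 with no overlap (none met this), and hosts named in the study's text that had a member; values on every array are printed for the annotated members, and values or ranges for the rest. Alternatives were quantile, median and detected-probe percentile scaling, normexp with offset 50, no background subtraction, other filters and thresholds, eBayes with trend, the methods' t-test, slide row as a covariate and each array left out. Profiles were cut with scipy 1.17.1. Some items are not reported here.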

Additional observations from a re-analysis of the deposited data

How the results depend on the processing

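The number of members (387) stayed within 1.5 times under other scalings (358 with quantile normalization, 400 with the array median, 392 with the percentile over detected probes). It fell to 229 without background subtraction (221 shared) and to 193 with normexp (186 shared), was 998 at a threshold of 1.5 and 94 at 3, and was 720 with spots above background on at least 3 arrays. Ranking by standard deviation instead shared 347 of 387. Leaving out 1 array gave 194 to 379 members, with 194 without cocaine CPP 4. Cutting the clustering at 0.2 or 0.4, and counting by profile under other settings, were chosen after seeing the data; the largest profiles then had 113, 90 and 83 or 146, 104 and 92 members.

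The 2 members under 0.05 unadjusted became 1 with the array median (beside 101 of all probes), 1 with quantile normalization (beside 109), 3 without background subtraction (beside 22), 0 with the methods' t-test (2-sided, beside 188 of all probes) and 25 with slide row as a covariate (beside 277 of all probes), and 1 to 57 when an array was left out, with 57 without cocaine CPP 2 (beside 527 of all 12956 probes), 20 without cocaine CPP 4 (beside 443), 9 without control 6 (beside 148), 7 without cocaine CPP 3 (beside 166) and 1 without control 1 (beside 47). The 3 members whose groups do not overlap became 5 to 50 with an array left out, since fewer arrays overlap less often: 50 without cocaine CPP 2 (12.9%, beside 19.7% of all probes tested), 34 without cocaine CPP 4 (8.79%, beside 16.5%), 18 without control 6 (4.65%, beside 13.3%), 8 without cocaine CPP 3 or control 5 (2.07%, beside 10.3% and 9.02%) and 5 without control 1 (1.29%, beside 6.28%). No adjusted p of any probe passed except with slide row as a covariate, where ASCRP4005999 did, in a fit whose cocaine arm is cocaine CPP 2 alone.

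The sign of the group difference was not stable. With slide row as a covariate it was -1.82 for Foxp1, -0.045 for Rexo2, -2.30 for Pdia5, -1.58 for Map1a, -1.10 for Trim37, -0.61 for Lsamp, -0.72 for Brwd1, -0.069 for Col4a3bp, 0.022 for Cux1, -0.095 for ASCRP4007826 and -0.052 for ASCRP4001622. Cux1 was 0.12 with normexp and 0.079 without background subtraction. With 1 array left out it ran from -0.72 to 1.71 for Foxp1, -0.22 to 2.10 for Rexo2, -0.97 to 1.24 for Pdia5, -0.78 to 1.32 for Map1a, -0.59 to 1.03 for Trim37, -0.28 to 0.85 for Lsamp, -0.27 to 0.83 for Brwd1, -0.27 to 0.80 for Kcnc2, -0.60 to 0.40 for Cux1, -4.14 to 0.35 for ASCRP4004197, -3.61 to 0.11 for ASCRP4009360, -0.30 to 0.67 for ASCRP4001622 and -0.26 to 0.74 for ASCRP4006849. The other 95 of 108 values under a changed setting, and 87 of 108 with an array left out, kept their sign. The causes were not tested. No paired analysis was possible because cocaine CPP and control have no replicate number in common.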

Other observations

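The array pattern of the Map1a member was also present below the threshold. A correlation above 0.95 with it over the 6 arrays was found for 72 of the 10983 probes, of which 28 were members and 44 were not. Host genes named among the 44 were Anks1b, Atp6v1h, Tfdp2 and Pfkfb2. All probes on an array share its labelling and scaling, and the correlation is a description.

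Anks1b encodes a scaffold protein of the postsynaptic density. Its probe (ASCRP4000194) read 0.28, 0.69 and 2.05 on cocaine CPP 2, 3 and 4 and 0.48, 1.38 and 1.07 on controls 1, 5 and 6, a range of 1.76. Atp6v1h encodes a subunit of the proton pump of vesicles and lysosomes, and its probe (ASCRP4001662) read 0.10, 1.08 and 1.98 on the cocaine arrays and 0.48, 1.02 and 0.94 on the controls. In both, cocaine CPP 4 was the highest array and cocaine CPP 2 the lowest. The ranges were 0.65 for Pfkfb2, which encodes an enzyme of glycolysis control, and 0.46 for Tfdp2, which encodes a partner of E2F transcription factors.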
